A study of Oryza sativa with 10 samples.

Results

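The roots of 2 transgenic rice lines were compared directly, one overexpressing OsNAC9 and the other OsNAC5. Both lines were Oryza sativa of the cultivar Illmi, and in each the coding sequence was joined behind an N-terminal MYC tag and driven by RCc3, a promoter that is active in roots. The members of the comparison were chosen from the sample titles. They are 4 of the 10 RNA-Seq libraries of the series, 2 of RCc3:myc-OsNAC9 (called OsNAC9 here) and 2 of RCc3:myc-OsNAC5 (OsNAC5). The remaining 6 libraries are 2 of the non-transgenic control (NT) and 2 each of the lines for OsNAC6 and OsNAC10, and they entered the fit to share 1 estimate of the spread. NT values are given for orientation. All groups were roots of seedlings given as 20 days old, although the extraction notes give 2-week-old roots. The study's methods add that the seedlings were held under water for 3 days before harvest, while its results speak of normal growth conditions. The study kept plants with much tagged protein from 5 independent transformants per construct and does not say how many of these stand behind the 2 libraries of a group. The comparison is therefore one of plant lines, and the effect of the OsNAC gene cannot be told apart from other differences between the lines.

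NAC proteins are transcription factors found only in plants. They bind DNA through a conserved N-terminal domain, many recognise sequences around a CACG core, and members of the stress-related branch to which OsNAC5 and OsNAC9 belong respond to drought, salt and abscisic acid. Both are known for thicker roots when overexpressed there. The direct comparison asks which transcripts differ between 2 lines that are built alike apart from the NAC gene.

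The values are FPKM, fragment counts scaled by transcript length and by the mapped total of the library, for 41635 annotated transcripts. Total FPKM in the 4 line libraries lay between 742051 and 767440. The study lists read totals for its libraries, while the table used here holds no counts per transcript. Relative depth, read from the lowest FPKM values, ranged from 1.12 to 1.23 times that of NT replicate 1. Across tested transcripts, which are not independent replicates, the 2 libraries of a line correlated with r = 0.992 in both lines, and libraries of different lines with r = 0.981 to 0.985. Markers of root identity were high in all 4 libraries. The RCc3 gene itself (Os02t0662000-01) gave 2367 and 2353 FPKM in OsNAC5 and 1659.7 and 1869 FPKM in OsNAC9, the silicon influx transporter Lsi1 (Os02t0745100-01) 722 and 715 FPKM in OsNAC5 and 826 and 928 FPKM in OsNAC9, and the efflux transporter Lsi2 (Os03t0107300-01) 302 and 356 FPKM in OsNAC5 and 307 and 382 FPKM in OsNAC9. None of the 3 was called, with adjusted p of 0.259, 0.482 and 0.927 in the limma fit.

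The overexpressed genes were examined first. The OsNAC9 gene (Os03t0815100-01, chromosome 3) measured 40.6 and 48.7 FPKM in OsNAC5 and 413 and 558 FPKM in OsNAC9, against 50.1 and 49.8 FPKM in NT. Both OsNAC9 libraries lay far above the other 4 libraries, and the OsNAC5 libraries lay just below NT. On the log2(FPKM + 1) scale, which is used for every difference given here, OsNAC9 exceeded OsNAC5 by 3.40 (SE 0.205, limma adjusted p = 0.000117). The OsNAC5 gene (Os11t0184900-02, chromosome 11) showed the reverse, with 145 and 154 FPKM in OsNAC5 and 27.0 and 27.9 FPKM in OsNAC9. In NT it measured 46.1 and 44.5 FPKM, so that the OsNAC9 libraries were the lowest and the OsNAC5 libraries the highest of these groups. The difference, OsNAC9 minus OsNAC5, was -2.40 (SE 0.102, limma adjusted p = 1.46e-05). A second transcript of the locus, Os11t0184900-01, stayed below 1 FPKM in all 10 libraries. Whether reads of the transgene and of the endogenous gene were both counted in these values cannot be told from FPKM. The NAC genes of the other 2 lines did not separate the lines. OsNAC6 (Os01t0884300-01, chromosome 1) gave 76.0 and 81.2 FPKM in OsNAC5 and 72.4 and 78.9 FPKM in OsNAC9, with overlapping lines and a difference of -0.06 (SE 0.0918, limma adjusted p = 0.834). OsNAC10 (Os11t0126900-01, chromosome 11) gave 22.4 and 22.1 FPKM in OsNAC5 and 22.1 and 23.6 FPKM in OsNAC9, again with overlap, and a difference of 0.04 (SE 0.072, limma adjusted p = 0.862).

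**Figure D1:**
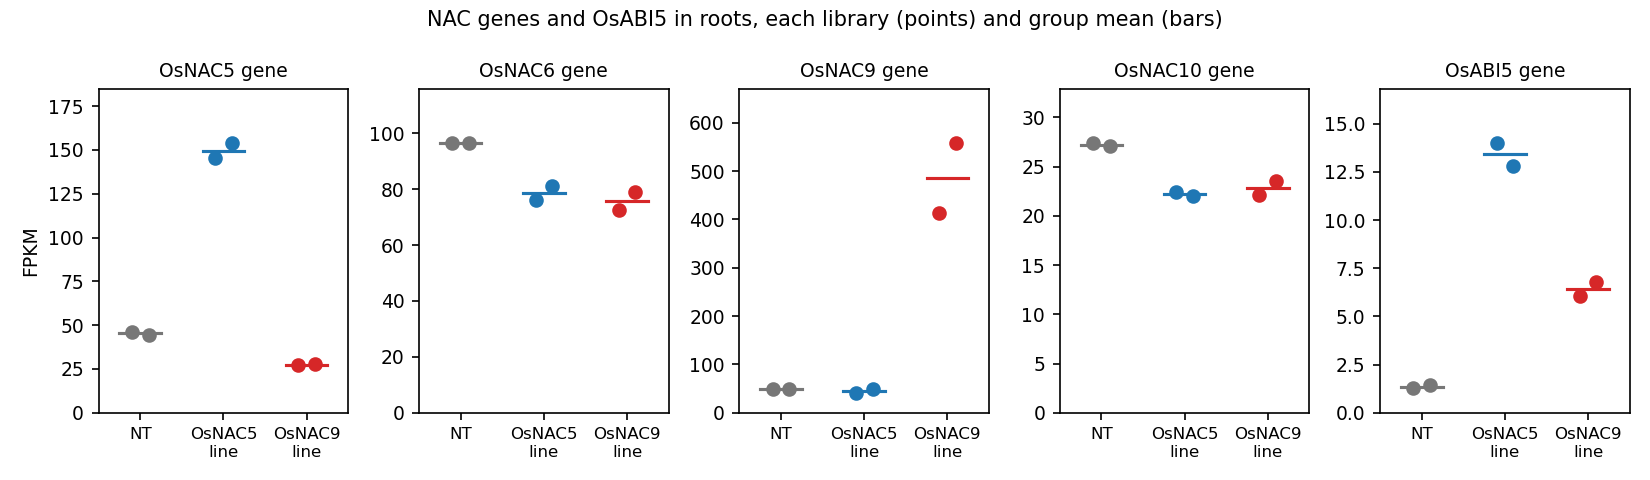
FPKM (linear axis from 0) of the 4 OsNAC genes and of OsABI5 in the 2 libraries each of NT, OsNAC5 and OsNAC9, with points for libraries and short bars for group means. The OsNAC9 gene stands at 413 and 558 FPKM in its own line, the OsNAC5 gene at 145 and 154 FPKM in its own line, and OsNAC6 and OsNAC10 do not separate the 2 lines.

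To identify transcripts that differ between the lines, testing was limited to the 33178 transcripts that no library listed at 0. A transcript was called when its adjusted p (Benjamini-Hochberg over all tested transcripts, limma) was under 0.05 and the difference at least 1.5 fold. At an unadjusted p under 0.05, 5395 transcripts (16.3%) differed at any fold and 1345 (4.05%) by at least 1.5 fold, and 1145 (3.45%) had an adjusted p under 0.05 at any fold. By the rule for calls 806 transcripts (2.43%) differed, 455 (1.37%) higher and 351 (1.06%) lower in OsNAC9. In each of the 806 both libraries of one line lay above both libraries of the other. The rule for calls makes this likely, so it adds no support to them. The same was seen in 77 of 173 tested ribosomal protein and 34 of 51 tested histone transcripts, with 0 calls in both lists. Of the higher transcripts 208 differed by at least 2 fold and 31 by at least 8 fold, and of the lower ones 118 and 6 did. The median size of the difference was 0.94 among the higher and 0.84 among the lower transcripts. For 328 of the 455 higher and 262 of the 351 lower transcripts the NT mean lay nearer to OsNAC5 than to OsNAC9. A description with no function was attached to 126 of the higher and 77 of the lower transcripts. The number of calls fell when any 1 of the 4 libraries was left out. Without OsNAC5 replicate 1, OsNAC5 replicate 2, OsNAC9 replicate 1 and OsNAC9 replicate 2, in that order, 371, 385, 424 and 412 transcripts were called, and 288 of the 806 (178 higher and 110 lower) were called in all 4 of these fits.

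**Figure D2:**
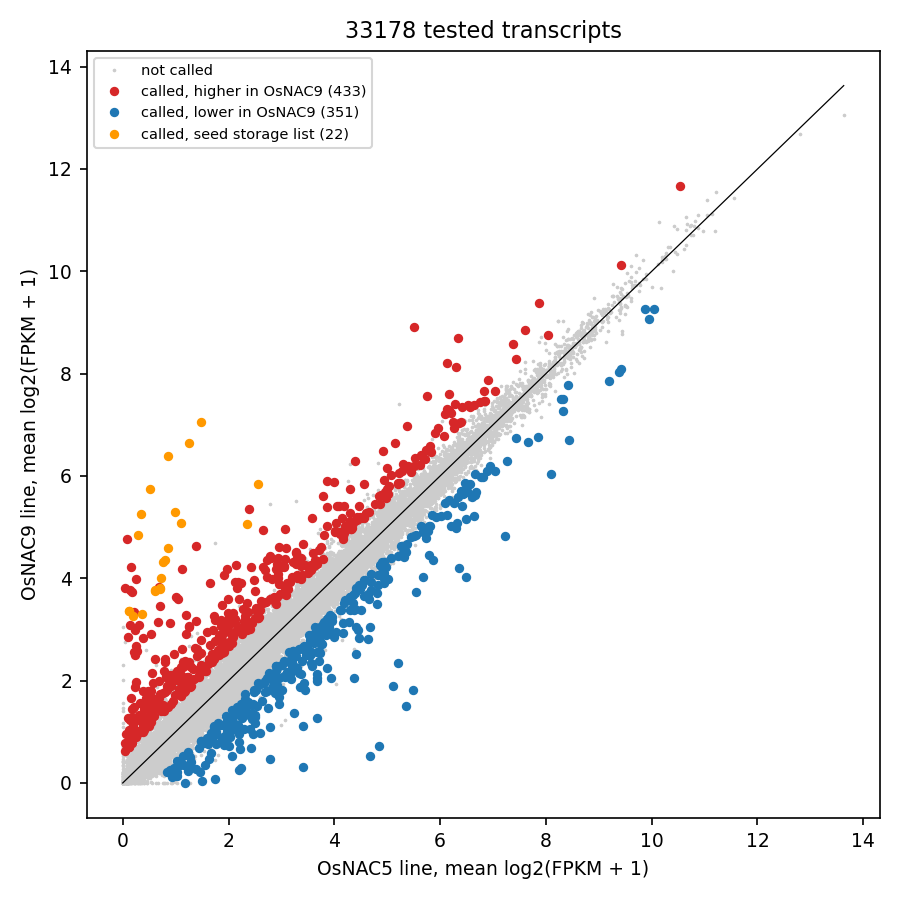
Mean log2(FPKM + 1) of each of the 33178 tested transcripts in OsNAC5 (horizontal axis) and OsNAC9 (vertical axis), with the line of equality in black. Of the called transcripts 433 (red) and the 22 of the seed storage list (orange) lie above it and 351 (blue) below it, and most orange points lie far above it at the low end of the OsNAC5 axis.

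The largest differences were in seed storage protein transcripts. Prolamins, glutelins and globulins are the proteins that rice lays down in the developing grain, mainly in the endosperm, and RAG2 and RA17 are grain allergens of the alpha-amylase and trypsin inhibitor family. Of the 10 described transcripts with the largest excess in OsNAC9, 8 belonged to these families. The highest of them, a 13 kDa prolamin (Os07t0206500-00, chromosome 7), measured 1.17 and 2.61 FPKM in OsNAC5 and 129 and 134 FPKM in OsNAC9, a difference of 5.57 (SE 0.221, limma adjusted p = 9.89e-06). Both OsNAC9 libraries exceeded the 16.2 and 12.8 FPKM of NT, and both OsNAC5 libraries were below NT. A second prolamin (Os12t0269200-01, chromosome 12) gave 0.652 and 0.958 FPKM in OsNAC5 and 78.4 and 87.8 FPKM in OsNAC9 (5.54 (SE 0.142, limma adjusted p = 1.35e-06)). RAG2 (Os07t0214300-01, chromosome 7) gave 1.54 and 1.26 FPKM in OsNAC5 and 91.3 and 108 FPKM in OsNAC9 (5.39 (SE 0.179, limma adjusted p = 4.28e-06)). In both, OsNAC9 was above NT and NT above OsNAC5. The 26 kDa alpha-globulin (Os05t0499100-01, chromosome 5) rose to 47.0 and 59.7 FPKM in OsNAC9, from 0.602 and 0.272 FPKM in OsNAC5. For a glutelin subunit (Os01t0762500-00, chromosome 1) the values were 1.09 and 0.907 FPKM in OsNAC5 and 39.1 and 37.4 FPKM in OsNAC9. RA17 (Os07t0214100-01), another allergen (Os07t0215500-01) and the 10 kDa prolamin (Os03t0766100-01) reached 27.1 to 39.7 FPKM in OsNAC9 libraries and stayed below 1.5 FPKM in OsNAC5. Adjusted p for these 5 ranged from 6.89e-07 to 7.53e-06 in limma, and the differences from 3.97 to 5.24.

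The pattern ran through the family. A list of seed storage proteins and seed allergens, drawn from the descriptions after these values had been seen and so given as a description only, held 57 transcripts. Of these, 5 are described as glutelin family proteins, and none of these was called. The most abundant of them (Os01t0111900-01) gave 185 and 201 FPKM in OsNAC5 and 299 and 299.8 FPKM in OsNAC9, with no overlap but an adjusted p of 0.0609 in limma. Among the other 52 transcripts, 46 had both OsNAC9 libraries above both OsNAC5 libraries, 45 had both above all 8 other libraries, and 4 were listed at 0 in every library. Lack of overlap between the lines, in either direction, was common elsewhere. It was seen in 162 of 293 tested NB-ARC immune receptor and 102 of 191 tested cytochrome P450 transcripts. Those counts take either direction and only the 2 lines, unlike the 46 and the 45. The share over all tested transcripts was not counted, so the 46 and 45 are description only. Only 22 of the 52 could be tested, since the rest were at 0 in at least 1 library, often of OsNAC10, and all 22 were called higher in OsNAC9, against 1.37% of all tested transcripts. Summed over the 52, the level was 982 and 1045 FPKM in OsNAC9 and 26.8 and 26.2 FPKM in OsNAC5, a ratio of means of 38.2. The corresponding sums were 129 and 112 FPKM in NT, 32.5 and 29.8 FPKM in OsNAC6, and 9.86 and 7.89 FPKM in OsNAC10. No sum of one group overlapped that of OsNAC9. In each of the 4 fits that left out a line library 22 of them were called higher. Many prolamin and glutelin copies are close to identical, and Os02t0249800-01 and Os02t0249900-01 differed by less than 0.03 FPKM in every library, so levels of single copies are uncertain.

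**Figure D3:**
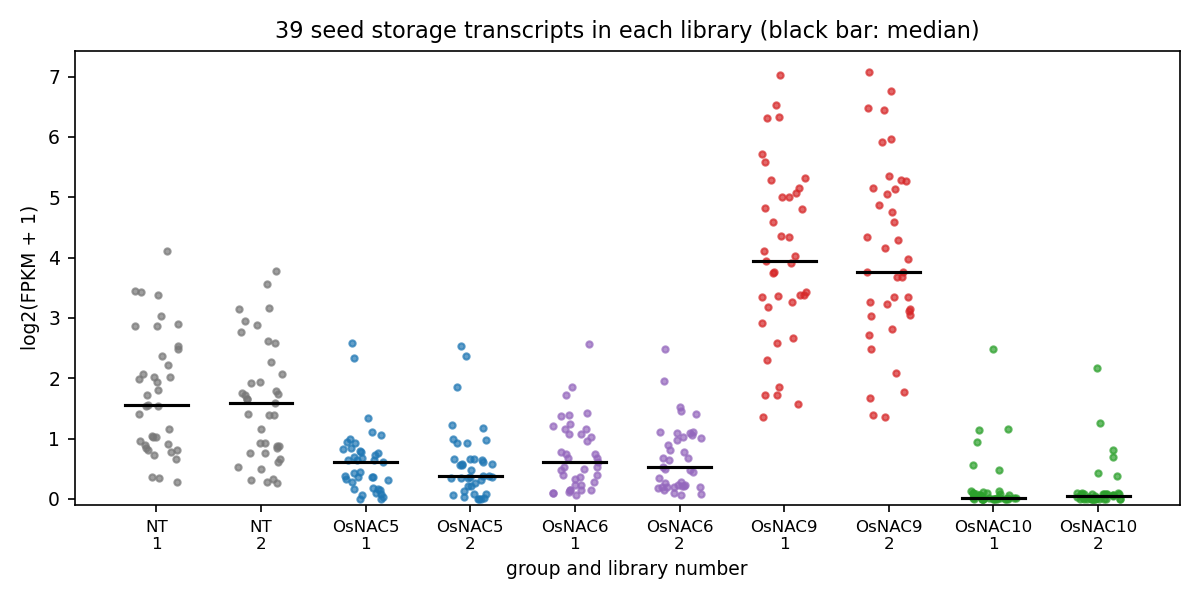
log2(FPKM + 1) of the 39 seed storage transcripts with at least 1 FPKM in both OsNAC9 libraries, for each of the 10 libraries, with points for transcripts and black bars for library medians. By this choice the OsNAC9 points start at 1 FPKM, both OsNAC9 libraries reach above 100 FPKM, and 11 of the 39 are listed at 0 in both OsNAC10 libraries.

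Other transcripts of the grain gave a mixed picture. The granule-bound starch synthase I (Os06t0133000-01), the Waxy enzyme that makes endosperm amylose, gave 0.0426 and 0.0275 FPKM in OsNAC5 and 0.595 and 0.706 FPKM in OsNAC9. It was listed at 0 in 1 OsNAC10 library and was not tested. The starch synthesis list as a whole held 23 transcripts, and of the 20 tested 1 was called, a branching enzyme (Os02t0528200-01) with 9.33 and 11.5 FPKM in OsNAC5 and 16.2 and 16.1 FPKM in OsNAC9. Over all tested transcripts 2.43% were called. The call of Os02t0528200-01 was lost without either NT library, OsNAC5 replicate 1, either OsNAC9 library or either OsNAC10 library. The summed level of the starch synthesis list was 85.6 and 83.9 FPKM in OsNAC5 and 93.5 and 91.1 FPKM in OsNAC9. The seed storage transcripts mark a tissue other than root, and their part in the remaining differences was not tested. Without them 784 calls were left, 433 higher and 351 lower.

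Some enzymes of fermentation and the haemoglobins of the plant, which act when oxygen is short, were among the transcripts higher in OsNAC9, while most of the list was not called. Pyruvate decarboxylase turns pyruvate into acetaldehyde on the way to ethanol, lactate dehydrogenase makes lactate, and non-symbiotic haemoglobins bind oxygen and remove nitric oxide. Of 58 tested transcripts 6 were called higher, 1 lower and 51 in neither direction. Over all tested transcripts 1.37% were called higher and 1.06% lower. The median difference of the list was -0.04, beside -0.00356 over all tested transcripts. Haemoglobin 2 (Os03t0226200-01) measured 79.3 and 80.5 FPKM in OsNAC5 and 383 and 449 FPKM in OsNAC9, a difference of 2.36 (SE 0.14, limma adjusted p = 0.00011), with NT between the lines at 135 and 157 FPKM. Haemoglobin 1 (Os03t0233900-01) gave 119.7 and 118 FPKM in OsNAC5 and 222 and 244 FPKM in OsNAC9. In NT it measured 215 and 226 FPKM, which overlapped OsNAC9 and lay above OsNAC5. For lactate dehydrogenase B (Os06t0104900-01) both lines were far below NT. It measured 0.575 and 0.662 FPKM in OsNAC5 and 2.61 and 3.45 FPKM in OsNAC9, with 90.2 and 97.4 FPKM in NT. A pair of neighbouring pyruvate decarboxylase transcripts (Os05t0469600-01 and Os05t0469800-00) behaved alike. The first gave 0.322 and 0.359 FPKM in OsNAC5 and 1.73 and 1.92 FPKM in OsNAC9, with 54.7 and 53.3 FPKM in NT. The second gave 0.185 and 0.325 FPKM in OsNAC5 and 2.04 and 1.87 FPKM in OsNAC9, with 45.6 and 45.7 FPKM in NT. So the lines differed by 1.08 and 1.24 at levels near 1 FPKM, both far under NT. An alcohol dehydrogenase (Os11t0210600-01) was the sixth, with 0.759 and 0.492 FPKM in OsNAC5 and 1.72 and 1.84 FPKM in OsNAC9. The call in the other direction was a short chain alcohol dehydrogenase-like transcript (Os11t0443700-01), with 2.71 and 2.90 FPKM in OsNAC5 and 0.662 and 0.806 FPKM in OsNAC9 (-1.13 (SE 0.0934, limma adjusted p = 0.000684)). Whichever line library was left out, 6 transcripts of the list were called higher and 1 lower.

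Several genes called together lie side by side. Runs of at least 3 neighbouring loci, taken in the order of locus names among the 29900 loci with a tested transcript, held 23 of the 451 loci called higher in 5 runs and 3 of the 347 loci called lower in 1 run. Seed storage genes made up a run of 8 prolamin loci on chromosome 5 (Os05g0328800 to Os05g0329700, differences of 3.09 to 3.73) and most of a run of 4 loci on chromosome 7 (Os07g0213600 to Os07g0214600, 3.29 to 5.39). The remaining locus of the latter, a lipid transfer and seed storage domain protein (Os07t0213600-01), was not in the list and gave 0.0664 and 0.131 FPKM in OsNAC5 and 11.7 and 13.7 FPKM in OsNAC9. Another run, on chromosome 5, held both pyruvate decarboxylase loci with 2 hypothetical proteins beside them, and reads of overlapping loci cannot be told apart here. On chromosome 6 the run consisted of 4 early nodulin loci (Os06g0142200 to Os06g0142400), genes of a family first found in legume nodules. Os06t0142400-01 measured 1.53 and 1.69 FPKM in OsNAC5 and 19.3 and 29.0 FPKM in OsNAC9 (3.24 (SE 0.216, limma adjusted p = 0.000209)), and the other 3 differed by 1.60 to 1.71. NT, at 29.8 and 29.3 FPKM for the first of these, lay above both OsNAC9 libraries. The remaining run of higher loci (Os02g0813166 to Os02g0813200) held an F-box protein, a hypothetical protein and a Myb/SANT-like protein that differed by 0.66 to 0.97. In the runs, the calls of Os02t0813166-00 and Os06t0142350-01 were lost without OsNAC5 replicate 2 or OsNAC9 replicate 2. That of Os02t0813183-00 was lost without either OsNAC5 library or OsNAC9 replicate 1, and that of Os05t0469812-00 without either OsNAC5 library or OsNAC9 replicate 2. That of Os06t0142300-00 was lost without OsNAC5 replicate 2. The run of lower loci held 3 DREB1 genes on chromosome 9 and is described with the transcription factors.

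**Figure D4:**
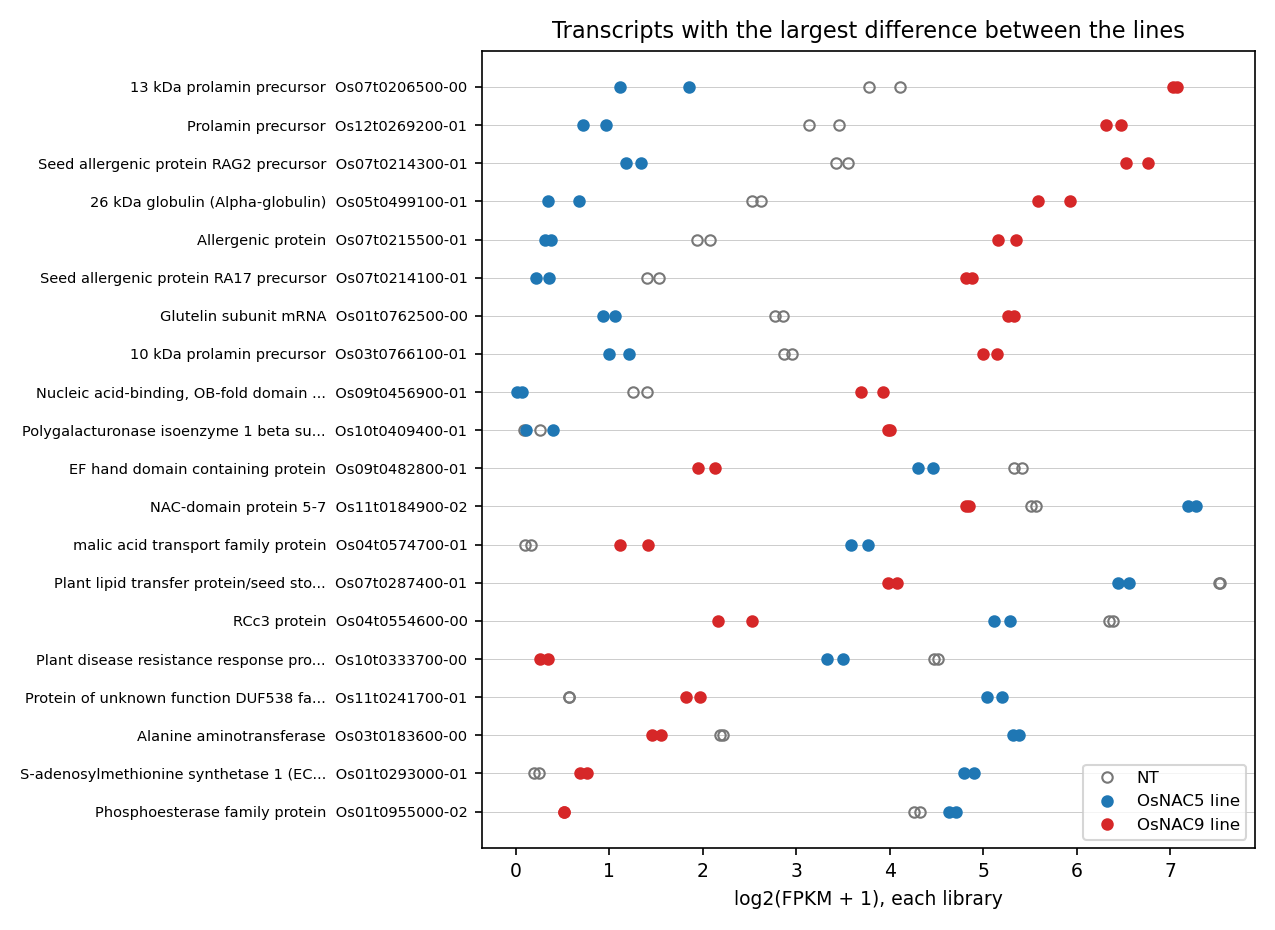
log2(FPKM + 1) in each library of NT (open grey), OsNAC5 (blue) and OsNAC9 (red) for the 10 described transcripts with the largest excess and the 10 with the largest deficit in OsNAC9. The 8 uppermost are seed storage transcripts, with NT between the lines, while among the lower 10 NT lies above both lines in 4, between them in 3 and below both in 3.

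Outside the grain proteins, the largest excess among described transcripts was in an OB-fold nucleic acid-binding protein (Os09t0456900-01, chromosome 9). It measured 0.0503 and 0.0122 FPKM in OsNAC5 and 14.2 and 11.9 FPKM in OsNAC9 (3.76 (SE 0.118, limma adjusted p = 3.39e-06)), with NT between at 1.65 and 1.38 FPKM. A polygalacturonase beta subunit-like transcript (Os10t0409400-01, chromosome 10) was close to absent in OsNAC5 and in NT and measured 14.8 and 15.0 FPKM in OsNAC9, against 0.0814 and 0.317 FPKM (3.73 (SE 0.147, limma adjusted p = 9.89e-06)). A cytochrome P450 (Os02t0503900-01) gave 0.555 and 0.677 FPKM in OsNAC5 and 11.7 and 15.0 FPKM in OsNAC9 (3.15 (SE 0.132, limma adjusted p = 1.33e-05)). An MtN3-type sugar transporter (Os05t0426000-01), of the family that moves sugars across membranes along their gradient, measured 2.00 and 2.29 FPKM in OsNAC5 and 13.1 and 14.8 FPKM in OsNAC9, with under 0.05 FPKM in NT. Among transcripts described without a function, Os10t0381601-01 gave 0.0675 and 0.0440 FPKM in OsNAC5 and 23.1 and 29.6 FPKM in OsNAC9 and Os07t0442800-01 gave 0.0911 and 0.139 FPKM in OsNAC5 and 17.4 and 17.9 FPKM in OsNAC9. In both cases OsNAC5 and NT were below 1 FPKM, while the OsNAC6 and OsNAC10 libraries were at 6.76 FPKM or more. The third, Os12t0515800-01, gave 0.0859 and 0.254 FPKM in OsNAC5 and 9.18 and 5.28 FPKM in OsNAC9.

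The transcripts with the largest deficit in OsNAC9 came from different kinds of genes. The largest was in a phosphoesterase (Os01t0955000-02, chromosome 1), which measured 25.1 and 23.8 FPKM in OsNAC5 and 0.428 and 0.437 FPKM in OsNAC9 (-4.15 (SE 0.0994, limma adjusted p = 9.51e-07)). The locus has a second transcript, Os01t0955000-03, that changed the other way, from 0.297 and 0.304 FPKM in OsNAC5 to 5.52 and 6.80 FPKM in OsNAC9 (2.46 (SE 0.133, limma adjusted p = 6.7e-05)). In every other library, NT included, the order was as in OsNAC5, with the first transcript at 18.2 FPKM or more and the second below 0.6 FPKM. Summed over the locus the difference was -1.77 (limma adjusted p = 8.66e-05). A transcript similar to S-adenosylmethionine synthetase 1 (Os01t0293000-01), the enzyme that makes the methyl donor of the cell, measured 28.9 and 26.8 FPKM in OsNAC5 and 0.704 and 0.612 FPKM in OsNAC9 (-4.12 (SE 0.151, limma adjusted p = 6.83e-06)). Its level in NT was 0.146 and 0.188 FPKM, and in the OsNAC6 libraries 39.8 and 28.7 FPKM, so a high level was shared by OsNAC5 and OsNAC6. An alanine aminotransferase (Os03t0183600-00), which links alanine and glutamate metabolism, gave 38.8 and 40.8 FPKM in OsNAC5 and 1.94 and 1.75 FPKM in OsNAC9 (-3.84 (SE 0.131, limma adjusted p = 5.06e-06)), and all 8 libraries outside OsNAC5 were below 4 FPKM. A further pair of transcripts was high in OsNAC5 alone among these groups. A DUF538 protein (Os11t0241700-01) gave 31.9 and 35.7 FPKM in OsNAC5 and 2.54 and 2.92 FPKM in OsNAC9, with under 0.5 FPKM in NT. A malic acid transport family protein (Os04t0574700-01) gave 11.1 and 12.6 FPKM in OsNAC5 and 1.16 and 1.67 FPKM in OsNAC9, with under 0.13 FPKM in NT.

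In the remaining described transcripts of this kind OsNAC9 was the lowest and NT the highest of the 3 groups. An RCc3-like transcript (Os04t0554600-00), a relative of the gene whose promoter drives the constructs, measured 33.6 and 38.1 FPKM in OsNAC5 and 3.49 and 4.75 FPKM in OsNAC9, against 80.1 and 82.9 FPKM in NT. The difference between the lines was -2.85 (SE 0.212, limma adjusted p = 0.000386). A disease resistance response domain protein (Os10t0333700-00) gave 9.07 and 10.3 FPKM in OsNAC5 and 0.199 and 0.270 FPKM in OsNAC9 and 21.8 and 21.2 FPKM in NT. A lipid transfer family protein (Os07t0287400-01) gave 85.5 and 92.9 FPKM in OsNAC5 and 14.8 and 15.9 FPKM in OsNAC9 and 183 and 183 FPKM in NT. An EF hand protein (Os09t0482800-01), of a calcium-binding kind, gave 18.7 and 21.1 FPKM in OsNAC5 and 2.87 and 3.38 FPKM in OsNAC9 and 39.2 and 41.6 FPKM in NT. These 3 differed between the lines by -3.11, -2.47 and -2.34, with limma adjusted p of 0.000109, 5.51e-05 and 5.34e-05. Of the transcripts without a described function, Os10t0552300-01 fell along the same order, from 152 and 148 FPKM in NT over 39.5 and 49.3 FPKM in OsNAC5 to 2.10 and 2.99 FPKM in OsNAC9. Its neighbour Os10t0552200-01, a hydrophobic lipid transfer-type protein, did so too, with 5.09 and 6.78 FPKM in OsNAC5 and 0.371 and 0.378 FPKM in OsNAC9 and 54.6 and 52.6 FPKM in NT. Os06t0200800-01 gave 44.4 and 46.9 FPKM in OsNAC5 and 12.0 and 12.6 FPKM in OsNAC9 (-1.81 (SE 0.13, limma adjusted p = 0.000321)). Os02t0115801-00 gave 19.7 and 20.7 FPKM in OsNAC5 and 2.65 and 8.12 FPKM in OsNAC9, with an adjusted p of 0.0329 in limma. This call was lost without either OsNAC5 library, either NT library or either OsNAC10 library.

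Gene lists drawn from the descriptions were counted next. The study concerns root architecture and drought, and 39 lists were taken up, covering transport, cell wall, hormone, transcription factor, defence, stress, growth and photosynthesis genes. The medians of these lists lay between -0.17 and 0.25, and 7 lists had no call. The 7 were cellulose synthases, ethylene synthesis genes, protein phosphatases 2C, metallothioneins, cytosolic ribosomal proteins, core histones, and cyclins with cyclin-dependent kinases. For the 173 tested ribosomal protein transcripts the median was 0.08, and for the 51 histone transcripts, which carry the packaging proteins of dividing cells, 0.25. Medians of single lists carry no test here. The counts below are to be read beside the 1.37% of all tested transcripts called higher and the 1.06% called lower.

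**Figure D5:**
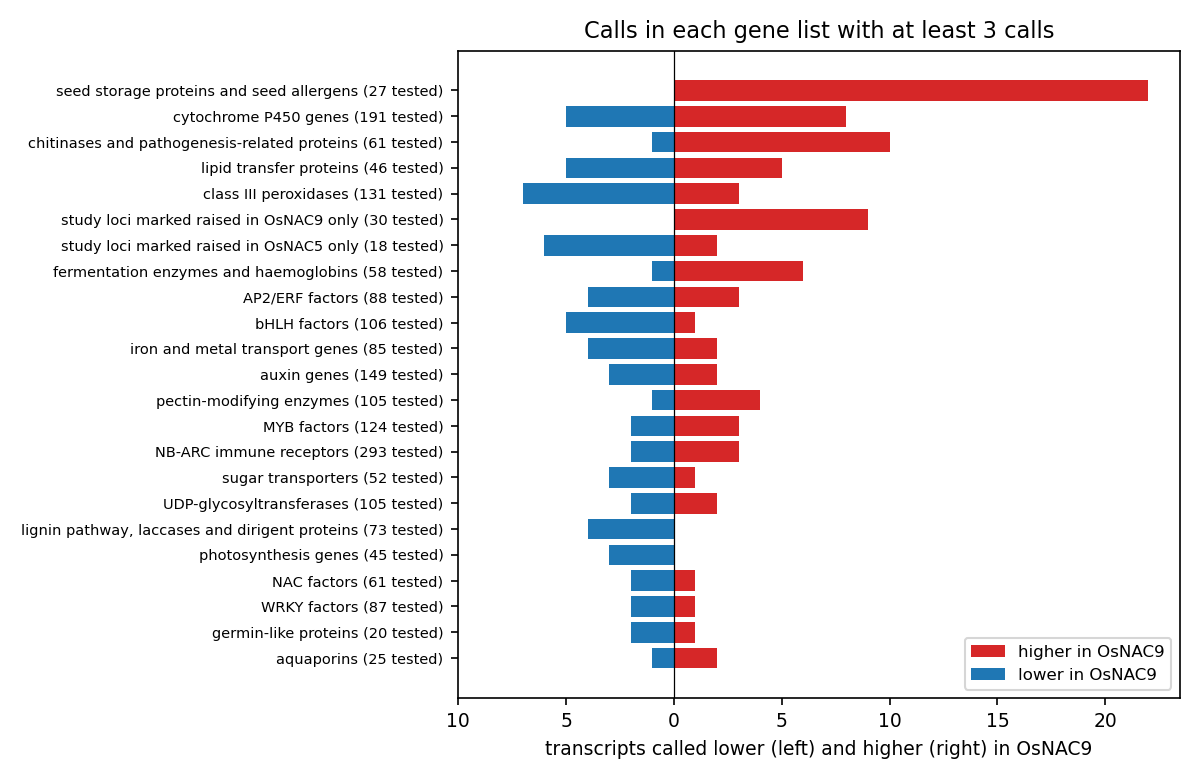
Number of transcripts called higher (red, to the right) and lower (blue, to the left) in OsNAC9 in each of the 23 lists with at least 3 calls, with the number tested in brackets. The seed storage list (22 higher, 0 lower) was drawn after its values were seen, and the study's own loci were selected by the study on these libraries.

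Cell wall genes moved in both directions. Class III peroxidases, secreted enzymes that cross-link or loosen wall polymers, had 3 calls higher and 7 lower among 131 tested. Os07t0676900-01 was the most abundant of the lower ones and had the largest deficit, with 338 and 356 FPKM in OsNAC5 and 91.6 and 117 FPKM in OsNAC9 (-1.73 (SE 0.149, limma adjusted p = 0.000837)) and 158 and 163 FPKM in NT. The next largest deficit was that of Os10t0109300-01, with 44.3 and 57.0 FPKM in OsNAC5 and 13.3 and 17.4 FPKM in OsNAC9. In the other direction Os02t0240100-01 gave 5.40 and 6.69 FPKM in OsNAC5 and 18.6 and 21.7 FPKM in OsNAC9 (1.59 (SE 0.163, limma adjusted p = 0.00224)) and Os06t0522100-00 gave 0.502 and 0.375 FPKM in OsNAC5 and 1.45 and 2.11 FPKM in OsNAC9. Leaving out OsNAC5 replicate 1, OsNAC5 replicate 2, OsNAC9 replicate 1 and OsNAC9 replicate 2 in turn gave 2, 2, 2 and 5 lower and 2, 1, 3 and 3 higher calls. Of the lignin pathway, laccase and dirigent list, 0 of 73 tested were called higher and 4 lower. These were 3 laccases, which oxidise lignin precursors, and a caffeoyl-CoA O-methyltransferase, which methylates them. The laccase Os05t0458600-01 gave 2.28 and 3.11 FPKM in OsNAC5 and 0.759 and 0.854 FPKM in OsNAC9, and the methyltransferase Os08t0498400-02 gave 3.04 and 2.79 FPKM in OsNAC5 and 0.957 and 1.22 FPKM in OsNAC9. When the same 4 libraries were left out one at a time, 2, 1, 0 and 1 transcripts of this list were called lower. By single transcripts, the call of Os10t0109300-01 was lost without OsNAC5 replicate 2 or OsNAC9 replicate 1. That of Os05t0458600-01 was lost without OsNAC5 replicate 2 or either OsNAC9 library, and that of Os08t0498400-02 without OsNAC5 replicate 1 or OsNAC9 replicate 1. That of Os06t0522100-00 was lost without OsNAC5 replicate 2.

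Pectin-modifying enzymes had 4 calls higher and 1 lower among 105 tested. Besides the beta subunit described above, a pectin methylesterase (Os08t0450200-01), which removes methyl groups from wall pectin, gave 0.217 and 0.171 FPKM in OsNAC5 and 4.92 and 5.88 FPKM in OsNAC9 (2.42 (SE 0.0875, limma adjusted p = 6.81e-06)). The lower one was a polygalacturonase (Os05t0578600-01), which cuts pectin, with 25.8 and 28.0 FPKM in OsNAC5 and 11.1 and 13.4 FPKM in OsNAC9 and under 1.6 FPKM in NT. Lipid transfer proteins, small secreted carriers of lipids, had 5 calls each way among 46 tested. Next to the transcripts already named, Os05t0489200-01 was higher in OsNAC9 with 1.25 and 1.32 FPKM in OsNAC5 and 8.41 and 9.10 FPKM in OsNAC9. Single calls were made higher and lower among 15 xyloglucan endotransglucosylases, enzymes that cut and rejoin xyloglucan chains. Os06t0697000-02 gave 3.16 and 3.62 FPKM in OsNAC5 and 14.5 and 14.1 FPKM in OsNAC9 (1.81 (SE 0.113, limma adjusted p = 0.000145)), and Os04t0604300-01 gave 10.6 and 11.1 FPKM in OsNAC5 and 3.22 and 5.12 FPKM in OsNAC9. Among 50 expansins, proteins that loosen the wall, Os07t0496250-01 (expansin-like B1) gave 0.930 and 0.835 FPKM in OsNAC5 and 2.14 and 1.67 FPKM in OsNAC9 and a beta-expansin (Os10t0555900-02) gave 83.5 and 83.3 FPKM in OsNAC5 and 49.4 and 53.3 FPKM in OsNAC9. Germin-like proteins had 1 call higher, the oxalate oxidase Os03t0693700-01, and 2 lower among 20 tested. The lower ones were Os12t0154900-00, with 9.24 and 8.24 FPKM in OsNAC5 and 5.24 and 4.04 FPKM in OsNAC9, and Os02t0532500-01, with 117 and 126 FPKM in OsNAC5 and 70.4 and 73.8 FPKM in OsNAC9. Without OsNAC5 replicate 1, OsNAC5 replicate 2, OsNAC9 replicate 1 and OsNAC9 replicate 2, lipid transfer proteins had 4, 5, 3 and 3 higher and 2, 2, 2 and 5 lower calls. In this group the calls of Os10t0555900-02 and Os03t0693700-01 were lost without any 1 of the 4 line libraries. Those of Os07t0496250-01 and Os12t0154900-00 were lost without any 1 library of the lines, NT or OsNAC10, and that of Os04t0604300-01 without either NT library, either OsNAC5 library, OsNAC9 replicate 1 or either OsNAC10 library.

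Among transcription factors, 3 neighbouring DREB1 genes were lower in OsNAC9. They encode proteins that bind the dehydration- and cold-responsive DNA element. Of all 22 transcripts described as binding this element, counted after these values were seen, 16 were tested, 0 were called higher and 6 lower, with a median difference of -0.13. DREB1B (Os09t0522000-01) measured 24.4 and 23.6 FPKM in OsNAC5 and 6.09 and 6.02 FPKM in OsNAC9, a difference of -1.82 (SE 0.212, limma adjusted p = 0.00387). DREB1H (Os09t0522100-00) gave 4.95 and 4.36 FPKM in OsNAC5 and 0.839 and 1.76 FPKM in OsNAC9, and DREB1A (Os09t0522200-01) gave 13.9 and 15.8 FPKM in OsNAC5 and 5.18 and 7.41 FPKM in OsNAC9. All 3 were intermediate in NT, at 16.4 and 16.9, 2.40 and 2.27 and 9.34 and 11.1 FPKM. In the AP2/ERF list, whose words do not find these 3, 3 of 88 tested were higher and 4 lower. RAP2.6-like factors, named after an Arabidopsis gene, were among the lower ones. The most abundant of them, Os04t0610400-00, gave 49.3 and 60.4 FPKM in OsNAC5 and 28.8 and 34.2 FPKM in OsNAC9 (-0.78). The call of Os04t0610400-00 was lost without OsNAC5 replicate 2 or OsNAC9 replicate 1. Os08t0474000-01 gave 8.90 and 10.5 FPKM in OsNAC5 and 1.22 and 1.10 FPKM in OsNAC9 (-2.30 (SE 0.169, limma adjusted p = 0.000365)) and Os09t0457900-01 gave 3.31 and 3.02 FPKM in OsNAC5 and 0.417 and 0.460 FPKM in OsNAC9. An EREBP-2-like transcript (Os05t0361700-01) was higher, with 4.67 and 3.54 FPKM in OsNAC5 and 9.56 and 11.3 FPKM in OsNAC9, and so was the ERF096-like Os09t0571700-00, with 0.509 and 0.886 FPKM in OsNAC5 and 2.13 and 2.68 FPKM in OsNAC9. The remaining higher member, Os01t0139600-01, is described as a lipid phosphate phosphatase and entered the list through the letters of the enzyme name AtPAP2, so it is no transcription factor. It gave 1.24 and 1.52 FPKM in OsNAC5 and 4.54 and 3.72 FPKM in OsNAC9. When single libraries were left out, the calls of Os09t0522200-01 and Os05t0361700-01 were lost without any 1 library of the lines, NT or OsNAC10. That of Os09t0522100-00 was lost without either OsNAC5 library or OsNAC9 replicate 1, and that of Os09t0571700-00 without OsNAC5 replicate 1 or OsNAC9 replicate 2.

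Of 106 tested bHLH factors 1 was called higher and 5 lower. Os04t0301500-01 gave 8.05 and 8.93 FPKM in OsNAC5 and 1.61 and 1.54 FPKM in OsNAC9 (-1.88 (SE 0.161, limma adjusted p = 0.000826)), with 20.9 and 21.7 FPKM in NT. Os05t0337200-01 gave 15.0 and 12.4 FPKM in OsNAC5 and 3.58 and 3.95 FPKM in OsNAC9 (-1.62 (SE 0.134, limma adjusted p = 0.000705)). Leaving out the 4 line libraries one by one, in the order used above, gave 3, 4, 3 and 4 lower calls. The MYB list had 3 calls higher and 2 lower among 124, with Os08t0496700-00 the largest at 6.04 and 5.37 FPKM in OsNAC5 and 1.75 and 1.74 FPKM in OsNAC9. WRKY factors, many of which act in defence, had 1 higher and 2 lower among 87. The transcript of the WRKY list with the largest deficit, Os02t0181300-01, gave 101 and 101 FPKM in OsNAC5 and 50.8 and 49.6 FPKM in OsNAC9 (-0.99 (SE 0.0803, limma adjusted p = 0.000632)), and WRKY62 (Os09t0417800-01) gave 36.0 and 41.2 FPKM in OsNAC5 and 64.2 and 86.2 FPKM in OsNAC9. In the NAC list of 61 tested, 3 were called, the transcripts of the 2 overexpressed genes and Os09t0509100-01, with 10.7 and 12.5 FPKM in OsNAC5 and 6.80 and 7.39 FPKM in OsNAC9. Homeobox factors had 1 call each way among 122. The bZIP list, whose words do not find OsABI5, had 1 call higher among 49, and OsABI5, described below, was lower. The higher homeobox transcript was ROC6 (Os09t0526200-01), a homeodomain-leucine zipper gene, with 1.21 and 1.09 FPKM in OsNAC5 and 2.08 and 2.45 FPKM in OsNAC9. The bZIP transcript, Os09t0474000-01, gave 16.1 and 16.8 FPKM in OsNAC5 and 26.6 and 30.4 FPKM in OsNAC9. In the same leave-outs 0, 0, 0 and 1 MYB transcripts were called higher and 1, 1, 1 and 2 lower, and 0, 0, 0 and 0 homeobox transcripts higher and 0, 0, 0 and 0 lower. The calls of Os09t0417800-01 and Os09t0474000-01 were lost without any 1 library of the lines, NT or OsNAC10. That of Os09t0509100-01 was lost without any 1 library of the lines or NT, and that of Os09t0526200-01 without any 1 of the 4 line libraries.

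Chitinases and pathogenesis-related proteins, secreted proteins of defence, had 10 calls higher and 1 lower among 61 tested, with a list median of 0.17. For the thaumatin-like protein Os12t0628600-01 both lines were far below NT. It measured 4.57 and 6.03 FPKM in OsNAC5 and 14.7 and 21.1 FPKM in OsNAC9 (1.58 (SE 0.171, limma adjusted p = 0.00274)), with 118 and 124 FPKM in NT. A chitinase (Os04t0494100-02) gave 0.803 and 1.04 FPKM in OsNAC5 and 3.09 and 3.55 FPKM in OsNAC9, also below the 5.81 and 6.50 FPKM of NT. The lower call was chitinase 8 (Os10t0543400-00), with 3.28 and 2.88 FPKM in OsNAC5 and 0.629 and 1.15 FPKM in OsNAC9. Without OsNAC5 replicate 1, OsNAC5 replicate 2, OsNAC9 replicate 1 and OsNAC9 replicate 2 the count of higher calls was 3, 4, 7 and 3. Cytochrome P450 genes, oxygenases of many pathways, had 8 calls higher and 5 lower among 191. With the same libraries left out, 4, 3, 4 and 3 were called higher and 1, 1, 1 and 2 lower. Os08t0508000-01 was the second largest of the higher ones, with 5.09 and 4.17 FPKM in OsNAC5 and 13.5 and 15.6 FPKM in OsNAC9. The larger of the lower ones, Os10t0171500-02, gave 7.81 and 8.53 FPKM in OsNAC5 and 3.75 and 3.72 FPKM in OsNAC9, and Os11t0151400-01 gave 3.80 and 4.08 FPKM in OsNAC5 and 1.49 and 1.85 FPKM in OsNAC9. A sesquiterpene cyclase (Os02t0458100-01) was the single call among 21 terpenoid genes, with 3.61 and 3.70 FPKM in OsNAC5 and 0.544 and 0.610 FPKM in OsNAC9 (-1.56 (SE 0.086, limma adjusted p = 7.19e-05)). NB-ARC immune receptors, the intracellular receptors of plant immunity, had 3 calls higher and 2 lower among 293. Os06t0287000-00 gave 1.15 and 1.44 FPKM in OsNAC5 and 3.08 and 2.53 FPKM in OsNAC9, while Os09t0272900-01 gave 5.75 and 5.46 FPKM in OsNAC5 and 2.52 and 2.40 FPKM in OsNAC9. Among 53 glutathione S-transferases the 1 call was Os01t0692000-01, with 3.71 and 3.80 FPKM in OsNAC5 and 7.32 and 7.12 FPKM in OsNAC9. Among these, the calls of Os09t0272900-01 and Os01t0692000-01 were lost without any 1 of the 4 line libraries. That of Os06t0287000-00 was lost without any 1 library of the lines, NT or OsNAC10, and that of Os11t0151400-01 without either OsNAC5 library or OsNAC9 replicate 1. That of Os10t0543400-00 was lost without OsNAC5 replicate 1.

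Hormone genes differed in single members. Gibberellin-regulated proteins are small cysteine-rich peptides, and 2 of the 22 tested transcripts of the gibberellin list were called, both higher. Os03t0607200-01 gave 2.47 and 3.06 FPKM in OsNAC5 and 15.7 and 15.7 FPKM in OsNAC9 (2.15 (SE 0.221, limma adjusted p = 0.00224)), with NT close to OsNAC5. Os05t0432200-00 gave 0.0578 and 0.170 FPKM in OsNAC5 and 2.00 and 2.34 FPKM in OsNAC9 (1.51 (SE 0.106, limma adjusted p = 0.000276)). Auxin genes had 2 calls higher and 3 lower among 149. The SAUR gene Os02t0143400-00, of a family induced early by auxin, gave 3.61 and 3.59 FPKM in OsNAC5 and 1.08 and 0.814 FPKM in OsNAC9, and an IAA16-like transcript (Os05t0186900-01), of the family of auxin response repressors, gave 2.71 and 2.74 FPKM in OsNAC5 and 5.32 and 5.71 FPKM in OsNAC9. Among 28 jasmonate genes a lipoxygenase (Os10t0361000-01), of the enzymes that oxidise fatty acids, gave 5.72 and 5.55 FPKM in OsNAC5 and 13.2 and 17.8 FPKM in OsNAC9. One late embryogenesis abundant protein of 21 tested LEA and dehydrin transcripts was called, Os01t0314800-01, with 86.2 and 102 FPKM in OsNAC5 and 146 and 178 FPKM in OsNAC9. Of 160 heat shock proteins and factors the 1 call was heat shock factor 29 (Os02t0232000-01), with 2.12 and 2.18 FPKM in OsNAC5 and 5.30 and 5.65 FPKM in OsNAC9. With the 4 line libraries left out as above, 0, 0, 0 and 0 auxin transcripts were called higher and 1, 0, 1 and 0 lower. The single calls of Os05t0186900-01 and Os10t0361000-01 were lost without any 1 library of the lines, NT or OsNAC10. That of Os01t0314800-01 was lost without any 1 library of the lines or NT, and that of Os02t0143400-00 without either OsNAC5 library or OsNAC9 replicate 2. That of Os02t0232000-01 was lost without OsNAC5 replicate 1 or OsNAC9 replicate 2.

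Transport genes differed in both directions. The tonoplast aquaporin Os02t0658100-01, a water channel of the vacuole, measured 667 and 666 FPKM in OsNAC5 and 246 and 275 FPKM in OsNAC9 (-1.35 (SE 0.115, limma adjusted p = 0.000801)). OsNAC9 lay just below the 304 and 313 FPKM of NT, and OsNAC5 well above it. The plasma membrane aquaporin PIP2-5 (Os07t0448400-01) gave 28.9 and 27.5 FPKM in OsNAC5 and 42.7 and 43.4 FPKM in OsNAC9, and 3 of 25 aquaporins were called in all. Of 85 iron and metal transport genes 2 were higher and 4 lower. OsNramp1 (Os07t0258400-01), a metal ion transporter, gave 99.8 and 97.7 FPKM in OsNAC5 and 175 and 159.6 FPKM in OsNAC9, and a heavy metal domain protein (Os02t0584700-01) gave 77.2 and 81.0 FPKM in OsNAC5 and 28.7 and 37.6 FPKM in OsNAC9. Sugar transporters had 1 call higher and 3 lower among 52. SWEET1A (Os01t0881300-02) gave 99.5 and 98.0 FPKM in OsNAC5 and 33.9 and 38.6 FPKM in OsNAC9 (-1.42 (SE 0.114, limma adjusted p = 0.000619)), with NT between the lines at 53.8 and 53.3 FPKM. Os11t0643800-01 gave 83.0 and 73.4 FPKM in OsNAC5 and 31.3 and 30.3 FPKM in OsNAC9. A peptide transporter (Os01t0871600-01) was the only call among 60 nitrogen transporters, with 29.6 and 34.1 FPKM in OsNAC5 and 47.9 and 63.5 FPKM in OsNAC9. One of 80 ABC transporters was called, Os01t0836600-01, with 2.31 and 2.16 FPKM in OsNAC5 and 0.753 and 1.06 FPKM in OsNAC9. Of 105 UDP-glycosyltransferases 2 were higher and 2 lower, led by Os01t0805400-01 with 1.40 and 1.40 FPKM in OsNAC5 and 6.14 and 8.62 FPKM in OsNAC9 (1.79 (SE 0.17, limma adjusted p = 0.00143)). Leaving out OsNAC5 replicate 1, OsNAC5 replicate 2, OsNAC9 replicate 1 and OsNAC9 replicate 2 gave 0, 0, 0 and 1 higher and 3, 2, 2 and 4 lower metal transport calls, 1, 1, 1 and 0 higher aquaporin calls and 1, 1, 2 and 1 higher and 1, 1, 1 and 1 lower glycosyltransferase calls. Of the transcripts above, the call of Os07t0258400-01 was lost without any 1 library of the lines, NT or OsNAC10. That of Os01t0871600-01 was lost without either NT library, either OsNAC5 library, OsNAC9 replicate 2 or either OsNAC10 library, and those of Os02t0584700-01 and Os01t0836600-01 without either OsNAC5 library or OsNAC9 replicate 1. That of Os07t0448400-01 was lost without OsNAC5 replicate 2 or OsNAC9 replicate 2, and that of Os11t0643800-01 without OsNAC5 replicate 1.

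Photosynthesis genes served as markers of shoot tissue. Of the 86 transcripts in the list 45 could be tested, and 0 were called higher and 3 lower in OsNAC9. The summed level was 314 and 314 FPKM in OsNAC5, 220.0 and 231 FPKM in OsNAC9 and 169 and 163 FPKM in NT. A ribulose bisphosphate carboxylase transcript (Os02t0152400-01), of the enzyme that fixes carbon dioxide, made up much of this difference, with 125 and 134 FPKM in OsNAC5 and 60.7 and 74.0 FPKM in OsNAC9. In NT it measured 11.0 and 11.4 FPKM, below both lines. The call of Os02t0152400-01 was lost without either OsNAC5 library or OsNAC9 replicate 1. A PsbQ family transcript of photosystem II (Os02t0631100-01) gave 15.1 and 15.5 FPKM in OsNAC5 and 6.62 and 6.90 FPKM in OsNAC9 (-1.07 (SE 0.0985, limma adjusted p = 0.00121)). The summed level of the list was thus lower in OsNAC9 than in OsNAC5, while 42 of the 45 tested transcripts were not called. The part of the list in the other results was not tested. Without OsNAC5 replicate 1, OsNAC5 replicate 2, OsNAC9 replicate 1 and OsNAC9 replicate 2, 1, 1, 1 and 2 transcripts of the list were called lower.

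Loci from the study's summary of selected target genes, marked there as bound by a NAC protein and raised in a line, were also compared. They are only a part of the direct targets that the study reports for these lines. The study selected them on these libraries against NT, so the direction of a locus marked in only 1 of the lines is not independent evidence. A mark needs both binding and a raised level, so a locus without one in a line may still be raised there. Of 26 loci marked in OsNAC9 but not in OsNAC5, 30 transcripts were tested, 9 were called higher in OsNAC9 and 0 lower, with a median difference of 0.47. Of 18 loci marked in OsNAC5 but not in OsNAC9, 18 transcripts were tested, 2 were called higher and 6 lower, with a median of -0.25. In these 2 sets, 21 of 30 and 10 of 18 transcripts were not called in either direction. Leaving out the 4 line libraries in turn gave 5, 5, 4 and 4 higher calls in the first set and 4, 4, 4 and 5 lower calls in the second. From the first set the EGG APPARATUS-1-like transcript (Os07t0605350-00) gave 7.84 and 9.87 FPKM in OsNAC5 and 18.9 and 21.3 FPKM in OsNAC9 (1.10 (SE 0.12, limma adjusted p = 0.0028)). The second set held SWEET1A, described above, and 2 loci that were higher in OsNAC9. These were OsPEZ1 (Os03t0571900-01), a transporter that exports phenolic compounds in the rice stele, with 7.21 and 6.56 FPKM in OsNAC5 and 18.7 and 17.3 FPKM in OsNAC9 (1.27 (SE 0.096, limma adjusted p = 0.000426)), and the oxalate oxidase OXO1 (Os03t0693700-01), with 2.21 and 2.25 FPKM in OsNAC5 and 4.44 and 5.06 FPKM in OsNAC9. In NT they measured 4.59 and 4.27 and 0.0413 and 0.212 FPKM, below both lines. The call of Os03t0693700-01 was lost without any 1 of the 4 line libraries. UGT93B9 (Os04t0556400-01), a glycosyltransferase, gave 2.95 and 3.65 FPKM in OsNAC5 and 0.900 and 1.33 FPKM in OsNAC9 (-1.03 (SE 0.122, limma adjusted p = 0.00418)) and OsLTPG19 (Os07t0198300-01), a lipid transfer protein held by a membrane anchor, 38.3 and 38.6 FPKM in OsNAC5 and 19.2 and 23.3 FPKM in OsNAC9, with OsNAC9 near NT in both. The call of Os07t0198300-01 was lost without either OsNAC5 library or OsNAC9 replicate 1.

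Of 7 loci marked in both lines, 9 transcripts were tested, with 1 called higher and 1 lower in OsNAC9. The lower one was OsABI5 (Os01t0859300-01, chromosome 1), a basic leucine zipper factor of abscisic acid signalling. It measured 14.0 and 12.8 FPKM in OsNAC5 and 6.06 and 6.80 FPKM in OsNAC9, against 1.26 and 1.44 FPKM in NT. Both lines were above NT, and OsNAC5 was about 2 times OsNAC9, a difference of -0.96 (SE 0.111, limma adjusted p = 0.00381). The higher one was OsENODL18 (Os06t0681200-01), an early nodulin-like copper-binding domain protein, with 8.55 and 9.10 FPKM in OsNAC5 and 14.0 and 16.2 FPKM in OsNAC9 (0.71 (SE 0.135, limma adjusted p = 0.0305)). Its call was lost without any one of the 4 line libraries and without either OsNAC10 library.

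Regions at which the study placed NAC binding are shown for 4 of these loci, because their transcripts differ between the lines in either direction. Each printed region comes from the experiment on 1 NAC protein, while the study marks all 4 loci as bound by more than 1. The regions were read from the study's listing of peaks, of which 618 regions were at hand, with IRGSP-1.0 positions as listed. A listed region spans as many bases as its end minus its start, so its start may count from 0, and the strand is not stated. Capitals mark CACG or its reverse complement CGTG, the core of NAC binding sequences.
OsABI5, chr1:37173200-37173400, listed as promoter, from the OsNAC6 experiment: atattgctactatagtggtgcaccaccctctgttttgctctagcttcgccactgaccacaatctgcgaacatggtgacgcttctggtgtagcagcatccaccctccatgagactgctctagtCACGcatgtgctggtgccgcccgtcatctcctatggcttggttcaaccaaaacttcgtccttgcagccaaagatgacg
OsPEZ1, chr3:20800377-20800533, listed as promoter at the start site, from the OsNAC5 experiment: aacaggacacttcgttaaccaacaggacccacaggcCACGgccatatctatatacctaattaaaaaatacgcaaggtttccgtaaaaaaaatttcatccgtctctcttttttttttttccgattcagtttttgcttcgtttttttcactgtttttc
OsLTPG19, chr7:5312417-5312573, listed as promoter, from the OsNAC5 experiment: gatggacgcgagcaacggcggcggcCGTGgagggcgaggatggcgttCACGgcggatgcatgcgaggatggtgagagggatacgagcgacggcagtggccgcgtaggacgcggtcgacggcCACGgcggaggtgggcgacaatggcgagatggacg
UGT93B9, chr4:27845775-27845955, listed as promoter at the start site, from the OsNAC9 experiment: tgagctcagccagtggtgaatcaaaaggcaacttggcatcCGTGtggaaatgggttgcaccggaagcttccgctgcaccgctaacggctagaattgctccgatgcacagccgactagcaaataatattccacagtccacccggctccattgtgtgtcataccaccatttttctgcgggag
The core occurred once in the regions of OsABI5, OsPEZ1 and UGT93B9 and 3 times in that of OsLTPG19. It is short and common, and it was present in 51 of 81 listed regions of 156 bases (63.0%), 51 of 74 of 180 bases (68.9%) and 67 of 83 of 200 bases (80.7%). The first length is that of the OsPEZ1 and OsLTPG19 regions, the next that of UGT93B9 and the last that of OsABI5. OsPEZ1 was higher and OsLTPG19 lower in OsNAC9, so these sequences give no order of the lines, and a match is not evidence of a site.

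Some transcripts were listed at 0 in both libraries of one line and at 1 FPKM or more in both of the other, and could not be tested. There were 15 such transcripts in OsNAC9 and 7 in OsNAC5. A level of 0 in FPKM can also be a failed estimate, and 1 of the 15 lies at a locus with more than 1 transcript. Of those with a mean of at least 5 FPKM, a 13 kDa prolamin (Os12t0269700-01) was present in OsNAC9 at 5.00 and 6.04 FPKM and in NT at 0.655 and 0.580 FPKM. Os01t0356951-01, similar to floozy, a flavin monooxygenase that petunia uses in auxin synthesis, was present in OsNAC5 at 14.6 and 15.2 FPKM. It was listed at 0 in both OsNAC9 libraries and at 0 and 0.0474 FPKM in NT. Os06t0107432-00, a non-protein coding transcript, measured 12.3 and 39.4 FPKM in OsNAC5 and 0 in OsNAC9 and NT. Its 2 OsNAC6 libraries were at 0 and 22.2 FPKM and its 2 OsNAC10 libraries at 21.1 and 0 FPKM, so it varied within groups.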

How the data were processed

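Roots of 5 groups of rice plants were profiled by RNA-Seq with 2 libraries a group, called biological replicates in the study, with the plants behind each library not given. P-values measure the spread between these libraries. The authors trimmed the reads, aligned them with TopHat to IRGSP 1.0 with the RAP-DB annotation, and deposited FPKM per annotated transcript. The study names Cufflinks for its own calls of changed genes. Versions, and whether Cufflinks also gave the FPKM, are not given in the sources used here. The libraries were strand-specific, and whether counting used strand is not stated. The study gives read totals per library, but FPKM hold no counts per transcript, so no counting error is given.

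The deposited FPKM values were taken as log2(FPKM + 1), which understates changes of low transcripts. Of 41635 transcripts the 33178 above 0 in all 10 libraries were tested with limma 3.58.1 in R 4.3.3 (two-sided moderated test, all 10 libraries in 1 fit, trended prior), and p-values were adjusted by Benjamini-Hochberg over all of them. A call needed an adjusted p under 0.05 and 1.5 fold. The procedure was checked on simulated data. Where a line library was left out, the remaining one was assumed to vary like the other groups.

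Transcripts were named by rule. These are the 4 OsNAC genes and OsABI5, the 10 described and 3 undescribed called transcripts with the largest difference each way at a mean of at least 5 FPKM, the 2 largest called members each way of each list at a mean of at least 1 FPKM, and transcripts at 0 in 1 line with a mean of at least 5 FPKM in the other. Seed storage and starch lists, other members of runs, the remaining fermentation calls and the count of DRE-binding proteins were chosen after their values were seen. So were the most abundant glutelin family transcript and the single transcripts Os07t0198300-01, Os09t0571700-00 and Os04t0610400-00. All members and lists were chosen with earlier results of these data known. Alternatives were other pseudocounts, filters, normalizations and thresholds, a fit of the 4 line libraries, sums per locus, a replicate block and leaving out each library.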

Additional observations from a re-analysis of the deposited data

Results flagged for a closer look

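The 109 called transcripts named by rule are counted here. Called transcripts named for other reasons are not, among them the DREB1 genes, in which NT also lay between the lines. In 47 of the 109, both OsNAC9 libraries lay on one side of both NT libraries and both OsNAC5 libraries on the other. Over all calls, the NT mean lay between the lines for 183 of 455 higher and 166 of 351 lower transcripts. This rule is looser than that of the 47, and the stricter count over all calls was not made. Whether such a place of NT was particular to the named transcripts therefore cannot be told. Apart from the OsNAC genes and OsABI5, the named transcripts were picked for their call between the lines, and their position on opposite sides of NT was not tested. Values are OsNAC9 minus OsNAC5 on the log2(FPKM + 1) scale. OsNAC9 was above NT and OsNAC5 below it in 27 transcripts. Of these, 8 were seed storage transcripts, namely Os07t0206500-00 (5.57), Os12t0269200-01 (5.54), Os07t0214300-01 (5.39), Os05t0499100-01 (5.24), Os07t0215500-01 (4.91), Os07t0214100-01 (4.56), Os01t0762500-00 (4.30) and Os03t0766100-01 (3.97). The others were Os03t0815100-01 (3.40), Os09t0456900-01 (3.76), Os10t0381601-01 (4.68), Os07t0442800-01 (4.06), Os01t0232000-00 (0.81), Os07t0448400-01 (0.59), Os06t0697000-02 (1.81), Os08t0450200-01 (2.42), Os07t0213600-01 (3.64), Os05t0186900-01 (0.81), Os05t0432200-00 (1.51), Os01t0314800-01 (0.78), Os09t0417800-01 (0.93), Os01t0128000-01 (0.86), Os09t0474000-01 (0.75), Os06t0287000-00 (0.73), Os02t0232000-01 (1.04), Os03t0226200-01 (2.36) and Os02t0528200-01 (0.59), with the OsNAC9 gene and haemoglobin 2 (Os03t0226200-01) among them. The order was the reverse in 20, which include the OsNAC5 gene and SWEET1A (Os01t0881300-02). These were Os11t0184900-02 (-2.40), Os01t0955000-02 (-4.15), Os03t0183600-00 (-3.84), Os06t0200800-01 (-1.81), Os02t0658100-01 (-1.35), Os02t0584700-01 (-1.24), Os03t0152000-01 (-1.06), Os01t0881300-02 (-1.42), Os11t0643800-01 (-1.31), Os07t0676900-01 (-1.73), Os10t0109300-01 (-1.66), Os05t0458600-01 (-1.02), Os08t0498400-02 (-0.91), Os04t0604300-01 (-1.22), Os09t0457900-01 (-1.53), Os09t0401000-01 (-0.99), Os05t0337200-01 (-1.62), Os10t0543400-00 (-1.12), Os02t0458100-01 (-1.56) and Os05t0527100-00 (-0.62).

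The test left out transcripts at 0 in any library, and 3 of those had a mean of at least 5 FPKM in one line and 0 in both libraries of the other. The prolamin Os12t0269700-01 averaged 5.52 FPKM in OsNAC9. The floozy-like Os01t0356951-01 averaged 14.9 FPKM in OsNAC5, and the non-coding Os06t0107432-00 averaged 25.8 FPKM there. These differences were not tested.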

How the results depend on the processing

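The number of calls depended on the spread estimate and the threshold. Against 455 higher and 351 lower transcripts (806 in all), a fit of only the 4 line libraries gave 181, 115 and 296, an unadjusted p under 0.05 with 1.5 fold gave 755, 590 and 1345, and an adjusted p with 2 fold gave 208, 118 and 326. Leaving out single libraries gave 212 to 567 higher, 137 to 447 lower and 371 to 1014 in all. Of the 109 called transcripts named by rule, 45 were not called in the fit of 4 libraries and 16 with no filter on zeros. Without a line library 33 to 41 were not called, and none of the 109 changed sign. The only changes of sign were in OsNAC genes that were not called, namely OsNAC6 (Os01t0884300-01), between -0.117 without OsNAC9 replicate 2 and 0.00597 without OsNAC9 replicate 1, and OsNAC10 (Os11t0126900-01), between -0.00639 without OsNAC9 replicate 2 and 0.0800 without OsNAC9 replicate 1. Without the seed storage list, a count chosen after seeing the data, 784 calls were left.

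The labels do not say whether same-numbered libraries share more than a number. The correlation of their deviations was 0.353 between OsNAC5 and OsNAC9 and -0.556 to 0.0996 between other groups. With a replicate block 382 transcripts were called higher and 295 lower, and 13 of the calls named by rule were lost. With 2 libraries a line and no counts per transcript, no counting error can be set beside differences near 0 FPKM.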
